A study of Mus musculus with 22 samples.

Results

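Expression of 28 named mouse genes of cholesterol and fatty acid synthesis, of 33641 genes in the deposited tables, was followed across 4 genotypes of hematopoietic progenitors. The members were matched by gene symbol, and all 28 were found. They comprise 7 enzymes of the mevalonate arm, 11 enzymes that turn its product into cholesterol, 5 control proteins of the SREBP system, 1 sterol carrier and 4 enzymes of fatty acid synthesis and desaturation. Of these, 27 reached a mean of 1 TPM over the 12 libraries, as did 13162 genes in all, and were tested. The stearoyl-CoA desaturase gene Scd1 averaged 0.696 TPM and is described without a test in the main fit.

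The RNA came from LSK cells, the lineage-negative, Sca1-positive, Kit-positive marrow gate that holds stem cells and multipotent progenitors. The groups, each with 3 libraries, were Chd8-/-P53-/- double knockout (DKO), Chd8-/- (Chd8 KO), P53-/- (P53 KO) and wild type (WT) mice on C57BL/6. CHD8 is a chromatin remodeler, and P53 is the stress-activated transcription factor encoded by Trp53. According to the labels, cells were sorted 6 days after deletion, which pI;pC injection induced, and were not cultured. pI;pC is a double-stranded RNA mimic used to switch on interferon-driven Cre alleles. The labels give neither the promoter behind the deletion nor whether each library is a different mouse. The p-values therefore cover only how far these samples vary, and that variation may be technical.

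Cells build cholesterol from acetyl-CoA through mevalonate, isoprenoid diphosphates, squalene and lanosterol. The enzymes are controlled together by SREBP transcription factors, which SCAP escorts out of the endoplasmic reticulum when sterols are low and which INSIG proteins hold back when sterols are plentiful. SREBP-1c and SREBP-2 differ in emphasis, with the one favouring fatty acid genes and the other sterol genes. Dividing blood progenitors need both products for new membrane, and the mevalonate arm also supplies farnesyl and geranylgeranyl groups for protein prenylation.

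Levels are given in TPM, a transcript abundance corrected for length, so that genes can be set side by side. A change is the difference of mean log2(TPM + 1) between groups, with its SE from limma, and a gene is said to rise or fall at a Benjamini-Hochberg adjusted p under 0.05 over the 13162 genes. In bulk RNA, fewer cells of a type and less RNA per cell cannot be told apart.

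Trp53 followed the labels in every library, at 16.1 to 18.1 TPM in DKO, 244 to 268 TPM in Chd8 KO, 17.5 to 24.3 TPM in P53 KO and 230 to 268 TPM in WT. Chd8 RNA was present in every library, at 34.8 to 44.4 TPM in DKO, 26.2 to 35.6 TPM in Chd8 KO, 53.1 to 69.4 TPM in P53 KO and 48.2 to 73.9 TPM in WT. Its change of -0.59 ± 0.18 in DKO relative to WT did not pass the test (adjusted p = 0.078), whereas that in DKO relative to P53 KO, -0.58 ± 0.18, passed narrowly (adjusted p = 0.0486). In Chd8 KO relative to WT the change was -1.03 ± 0.18 (adjusted p = 0.00357). Kit stood at 180 to 295 TPM over all libraries and Ly6a, which encodes Sca-1, at 85.0 to 356 TPM. P53 KO libraries 1 and 2 carry another run number in their tables than the other 10 libraries, and their mitochondrial share was 2.12% and 1.90% of TPM, against 5.33% to 6.97% elsewhere. Summed TPM of 4 Y-linked genes was 1.80 to 2.03 in DKO, 94.2 to 116 in Chd8 KO, 0.738, 50.1 and 1.35 in P53 KO and 126, 113 and 1.16 in WT, so the libraries of WT and of P53 KO were not alike in this respect. DKO and Chd8 KO differed in it in every library, so in their comparison it cannot be told apart from the loss of P53. All 3 DKO libraries also differed in it from WT libraries 1 and 2.

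Summed over the 28 genes, expression was 815, 978 and 889 TPM in DKO, 945, 967 and 1025 TPM in Chd8 KO, 918, 882 and 884 TPM in P53 KO and 1068, 1019 and 887 TPM in WT. All Chd8 KO totals lay above all P53 KO totals, and the other pairs of genotypes overlapped. WT library 3 held the lowest WT value for 23 of the 28 genes, and DKO library 1 the lowest DKO value for 21. WT library 3 was also the WT library with few Y-linked transcripts, and its 7 neutrophil markers summed to 4405 TPM, against 1899 and 2009 TPM in WT libraries 1 and 2. Among these markers S100a8 was at 253 TPM in WT library 3, against 16.3 and 4.31 TPM, and the part of these differences in the WT comparisons was not tested. The median coefficient of variation of a member between libraries was 11.6% in DKO, 9.52% in Chd8 KO, 7.47% in P53 KO and 11.7% in WT.

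**Figure D1:**
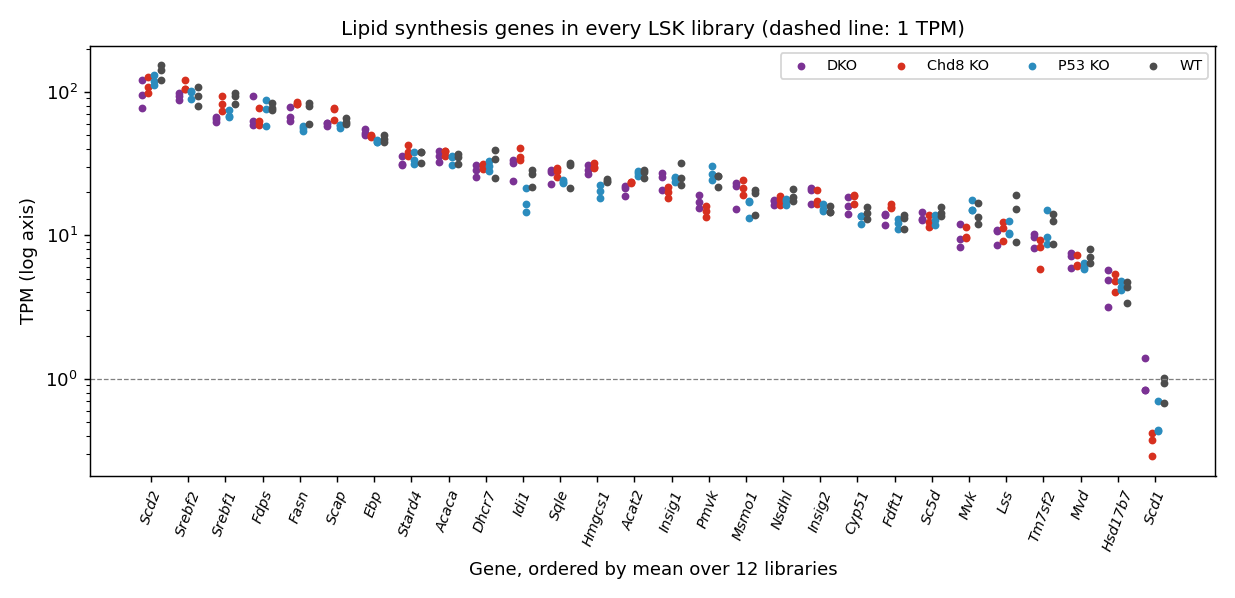
TPM on a log axis (y) of each of the 28 genes (x, ordered by mean), with 1 point per library coloured by genotype. Levels span from Scd2 at a mean of 117 TPM to Scd1 at 0.696 TPM, and for most genes the 4 genotypes lie on top of each other.

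The genes differed far more in level from each other than between genotypes. Scd2, a stearoyl-CoA desaturase, was the most abundant with a mean of 117 TPM, while its relative Scd1 was nearly silent. Next came the SREBP genes Srebf2 at 98.2 TPM and Srebf1 at 77.2 TPM, then Fdps, the farnesyl diphosphate synthase, at 72.5 TPM and Fasn, the fatty acid synthase, at 70.7 TPM. Scap averaged 63.0 TPM and Ebp, a sterol isomerase, 48.6 TPM. The least abundant tested members were Tm7sf2, a sterol reductase, at 10.05 TPM, Mvd, the mevalonate diphosphate decarboxylase, at 6.66 TPM and Hsd17b7, a sterol ketoreductase, at 4.49 TPM.

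Loss of Chd8 with P53 present was set against WT to ask which steps of the pathway respond to the remodeler. The set as a whole was split: 1 of 27 genes rose and 1 fell, while 9.65% of all tested genes rose and 6.98% fell. Hmgcs1 rose and Pmvk fell, and both encode enzymes of the mevalonate arm. The median change of the 27 genes was -0.01, beside 0.02 over all genes tested. At an unadjusted p under 0.05, 6 members were higher and 5 lower, or 22.2% and 18.5%, beside 18.2% and 13.2% of all genes tested, so these shares were close to the background.

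Pmvk encodes phosphomevalonate kinase, which adds the second phosphate to mevalonate (chromosome 3, 89454541 to 89469014, GRCm38). It had 13.4, 14.7 and 16.1 TPM in Chd8 KO libraries, against 26.0, 25.9 and 21.7 TPM in WT libraries. Every Chd8 KO library lay below every WT library. Pmvk fell by 0.70 ± 0.12 on the log2 scale, with an adjusted p of 0.00363. The fall was shared by its main transcripts: ENSMUST00000029564.11 averaged 13.3 TPM in Chd8 KO and 19.3 TPM in WT, and ENSMUST00000184515.1 had 1.29, 0.646 and 1.36 TPM in Chd8 KO and 4.71, 2.62 and 6.70 TPM in WT. With the most abundant transcript of each gene used in place of the gene sum, the change was -0.49 with an adjusted p of 0.0607.

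Hmgcs1 encodes the cytosolic HMG-CoA synthase, which makes HMG-CoA at the entry to the arm (chromosome 13, 119690351 to 119708260). It had 29.4, 31.9 and 29.9 TPM in Chd8 KO libraries and 24.9, 23.7 and 23.4 TPM in WT libraries, without overlap. The rise was 0.33 ± 0.09, with an adjusted p of 0.0332. The call was lost under median-of-ratios scaling, under quantile normalization and when any single Chd8 KO or WT library was left out, with adjusted p up to 0.114 over the alternatives.

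The other steps of the mevalonate arm did not pass the test, and their values point in both directions. Idi1, which isomerises isopentenyl diphosphate, had 33.3, 40.8 and 35.3 TPM in Chd8 KO libraries, against 26.98, 28.5 and 21.7 TPM in WT libraries. Its change was 0.49 ± 0.17 with an adjusted p of 0.0714. Mvk, the mevalonate kinase that acts just before Pmvk, had 9.63, 9.81 and 11.4 TPM in Chd8 KO, against 16.9, 13.5 and 11.9 TPM in WT, a change of -0.41 ± 0.15 (adjusted p = 0.0949). Acat2, the cytosolic acetoacetyl-CoA thiolase of the very first step, had 23.7, 23.4 and 23.2 TPM in Chd8 KO and 28.6, 27.5 and 25.2 TPM in WT, a change of -0.20 ± 0.08 (adjusted p = 0.134). The libraries of the groups did not overlap for these 3 genes, and none of the 3 reached the threshold. Of all members, 5 (18.5%) were higher and 4 (14.8%) lower without overlap, beside 22.7% and 14.4% of all genes tested. Mvd and Fdps overlapped between the groups, with Mvd at 6.12 to 7.35 TPM in Chd8 KO and 6.37 to 8.05 TPM in WT.

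None of the 11 enzymes between squalene and cholesterol was called in Chd8 KO. Fdft1, the squalene synthase, had 15.7, 16.6 and 15.6 TPM in Chd8 KO, against 13.1, 14.0 and 10.98 TPM in WT, a change of 0.32 ± 0.11 (adjusted p = 0.081). Fdft1 lies on chromosome 14, as Chd8 does, and the part of that position in its change was not tested. Cyp51, the lanosterol demethylase, stood at 16.5 to 19.0 TPM in Chd8 KO and 13.0 to 15.6 TPM in WT, a change of 0.32 ± 0.12 (adjusted p = 0.0906). Sqle, the squalene epoxidase that is a slow step of the pathway, overlapped, at 25.5 to 29.5 TPM in Chd8 KO and 21.4 to 32.2 TPM in WT. Lss, the lanosterol synthase, was at 9.16 to 12.3 TPM in Chd8 KO, against 15.3, 19.2 and 9.04 TPM in WT, where library 3 alone was low. The sterol-modifying enzymes were not called in any comparison. Over all 12 libraries Tm7sf2 ranged from 5.83 to 15.1 TPM, Msmo1 from 13.2 to 24.4 TPM and Nsdhl from 16.2 to 21.0 TPM. Hsd17b7 ranged from 3.17 to 5.75 TPM, Ebp from 44.5 to 54.8 TPM and Sc5d from 11.4 to 15.6 TPM. Dhcr7, the last reductase of one branch, was at 29.2 to 31.4 TPM in Chd8 KO and 25.2 to 39.2 TPM in WT.

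Among the control genes, Insig1, which encodes a brake on SREBP release, had 18.2, 20.0 and 21.8 TPM in Chd8 KO and 31.9, 24.9 and 22.4 TPM in WT. Its change was -0.37 ± 0.14 (adjusted p = 0.0921). Its relative Insig2 had 16.5 to 20.6 TPM in Chd8 KO and 14.5 to 15.99 TPM in WT. Scap had 76.7, 63.5 and 76.0 TPM in Chd8 KO and 65.2, 61.7 and 59.6 TPM in WT, with 1 Chd8 KO library inside the WT range. Srebf2 overlapped, at 104 to 120 TPM in Chd8 KO and 79.6 to 108 TPM in WT, as did the sterol carrier Stard4, at 35.7 to 43.0 TPM in Chd8 KO and 31.9 to 38.3 TPM in WT. Fasn and Acaca, which makes malonyl-CoA for Fasn, also overlapped, with Fasn at 81.9 to 84.6 TPM in Chd8 KO and 60.2 to 83.6 TPM in WT.

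Other measured genes moved in the same comparison. All 6 P53 target genes measured rose in Chd8 KO, with a summed level of 576 to 862 TPM in Chd8 KO and 140 to 156 TPM in WT. The summed level of 9 proliferation genes was 2561 to 2734 TPM in Chd8 KO and 2315 to 2395 TPM in WT, and 2 of the 9 rose. The 8 erythroid markers summed to 81.3 to 144 TPM in Chd8 KO and 455 to 925 TPM in WT, and 3 of them fell. The 5 mast cell and eosinophil markers summed to 128 to 165 TPM in Chd8 KO and 905 to 2148 TPM in WT, and 4 fell. Of 6 B cell markers, summing to 43.3 to 50.5 TPM in Chd8 KO and 128 to 364 TPM in WT, 4 fell, and of 7 stem cell markers, at 366 to 490 TPM in Chd8 KO and 237 to 320 TPM in WT, 3 rose. Also lower in Chd8 KO were 3 of 4 tested T and NK cell markers, 2 of 5 macrophage and dendritic markers and 2 of 4 megakaryocyte markers, while Ly6a of the sort gate rose by 1.01 ± 0.30 (adjusted p = 0.044). None of 7 neutrophil markers was called. Cd3g was at 0 in Chd8 KO library 3 and Cd3e at 0 in P53 KO library 3. Their part in the changes of the lipid genes was not tested.

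**Figure D2:**
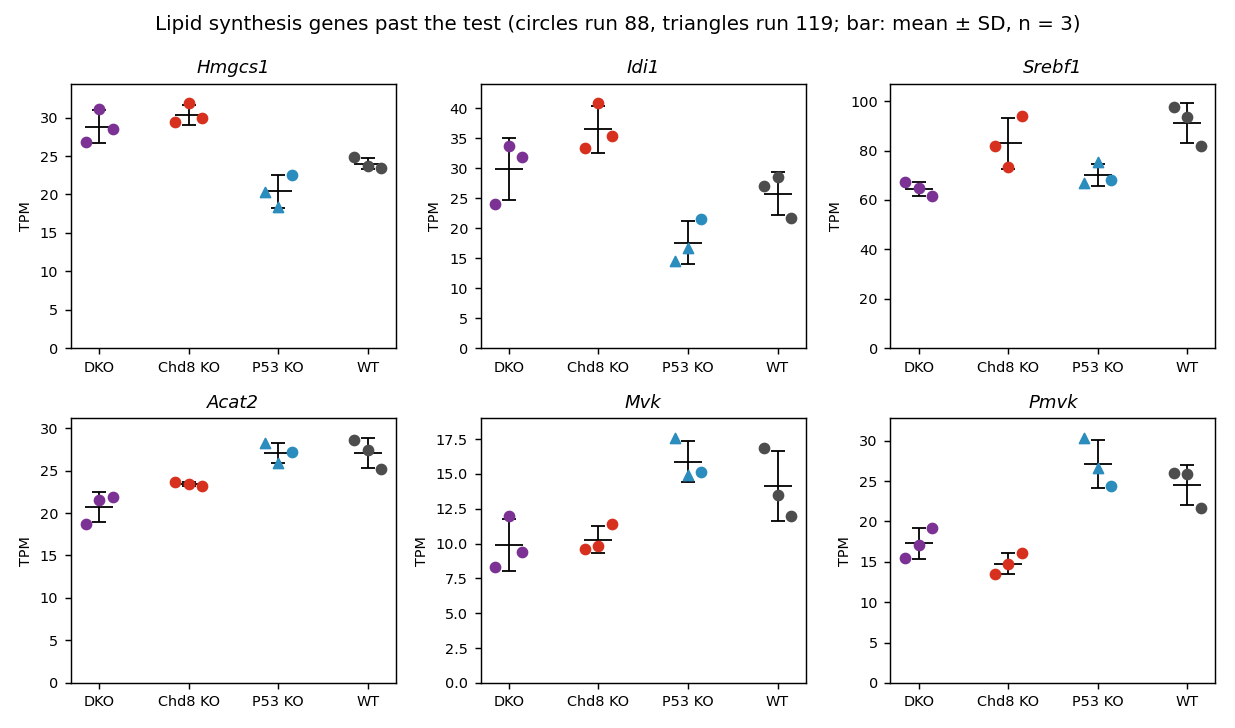
TPM (y) of the 6 genes called in at least 1 comparison, by genotype (x), with 1 point per library (circles for run 88, triangles for run 119) and bars for mean ± SD (n = 3). Hmgcs1 and Idi1 stand higher, and Mvk, Pmvk and Acat2 lower, in DKO and Chd8 KO than in P53 KO.

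Loss of Chd8 without P53 was measured as DKO against P53 KO, and here 2 of 27 genes rose and 3 fell, all in the mevalonate arm. Over all tested genes, 11.2% rose and 3.69% fell. Idi1 and Hmgcs1 were the genes that rose, and Mvk, Pmvk and Acat2 those that fell. The median change of the 27 was 0.02, beside 0.11 over all genes tested. P53 KO libraries 1 and 2 in this comparison are those of the other run. The 8 erythroid markers summed to 697 to 1613 TPM in DKO and 245 to 1580 TPM in P53 KO, with 3 higher in DKO, and the 6 P53 targets to 118 to 126 TPM in DKO and 119 to 136 TPM in P53 KO, with none called. Also higher in DKO were 2 of 7 stem cell markers and 2 of 5 tested macrophage and dendritic markers. Of 4 tested T and NK cell markers, 1 was lower. The part of these markers in the changes was not tested.

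Idi1 (chromosome 13, 8885606 to 8892396) had 24.0, 33.6 and 31.9 TPM in DKO, against 14.5, 16.7 and 21.5 TPM in P53 KO. The change was 0.74 ± 0.17 (adjusted p = 0.019), the largest among the members here. Hmgcs1 had 26.8, 31.1 and 28.5 TPM in DKO, against 20.3, 18.3 and 22.5 TPM in P53 KO, a rise of 0.48 ± 0.09 (adjusted p = 0.00927). All DKO values of both genes exceeded all P53 KO values.

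Pmvk had 15.5, 17.1 and 19.2 TPM in DKO, against 30.3, 26.6 and 24.4 TPM in P53 KO, and fell by 0.62 ± 0.12 (adjusted p = 0.0098). Mvk (chromosome 5, 114444264 to 114460591) had 8.28, 11.97 and 9.42 TPM in DKO, against 17.6, 14.9 and 15.1 TPM in P53 KO, and fell by 0.64 ± 0.15 (adjusted p = 0.0232). Acat2 (chromosome 17, 12943042 to 12960725) had 18.7, 21.5 and 21.9 TPM in DKO, against 28.2, 25.9 and 27.2 TPM in P53 KO, and fell by 0.37 ± 0.08 (adjusted p = 0.0176). The 2 kinases act one after the other on mevalonate, and the libraries of the groups did not overlap for any of these 3 genes. They were the only members lower without overlap, or 11.1%, beside 8.59% of all genes tested.

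Outside the mevalonate arm no member was called in DKO against P53 KO. Ebp had 51.3, 54.8 and 49.97 TPM in DKO, against 45.1, 46.5 and 44.9 TPM in P53 KO, a change of 0.19 ± 0.07 (adjusted p = 0.0767). Insig2 had 16.6 to 21.3 TPM in DKO and 14.7 to 16.5 TPM in P53 KO (0.31 ± 0.12, adjusted p = 0.102), and Fasn had 62.4 to 79.1 TPM in DKO and 53.7 to 58.2 TPM in P53 KO (0.30 ± 0.12, adjusted p = 0.111). Cyp51 had 14.0 to 18.6 TPM in DKO and 11.99 to 13.7 TPM in P53 KO (0.28 ± 0.12, adjusted p = 0.133). The libraries of these 4 genes did not overlap between the groups, and none of the genes passed. With Hmgcs1 and Idi1 that made 6 members (22.2%) higher without overlap, beside 26.7% of all genes tested.

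None of the 5 calls survived when the run was accounted for. With only the run of 10 libraries, where P53 KO is a single library assumed to vary like the other groups, the changes were 0.44 for Idi1 (adjusted p = 0.28), 0.34 for Hmgcs1 (0.133), -0.48 for Pmvk (0.145), -0.58 for Mvk (0.201) and -0.38 for Acat2 (0.127), all in the same direction as with all libraries. With the run as a covariate the adjusted p were 0.122 to 0.273. Idi1 and Hmgcs1 were also not called under both other scalings, which moved the median change of all genes by -0.11.

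The difference between the effects of Chd8 loss without and with P53 was tested as an interaction. None of the 27 members passed limma's test in either direction, while 0.965% of all genes were higher and 0.836% lower. No member had an unadjusted p under 0.05 either, beside 12.5% of all genes tested higher and 7.01% lower. The median interaction was 0.06 over the members and 0.10 over all genes tested. The interaction was 0.15 for Hmgcs1 (95% interval -0.13 to 0.44), 0.24 for Idi1 (-0.28 to 0.77), 0.08 for Pmvk (-0.30 to 0.45), -0.23 for Mvk (-0.71 to 0.25) and -0.18 for Acat2 (-0.44 to 0.09). These intervals do not show that the effects were alike. The comparisons without and with P53 share no libraries, and each of the 5 genes had the same sign in both. So did most of the 27 members, and the 5 were chosen by their call in DKO against P53 KO. The share over all genes is not given here.

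**Figure D3:**
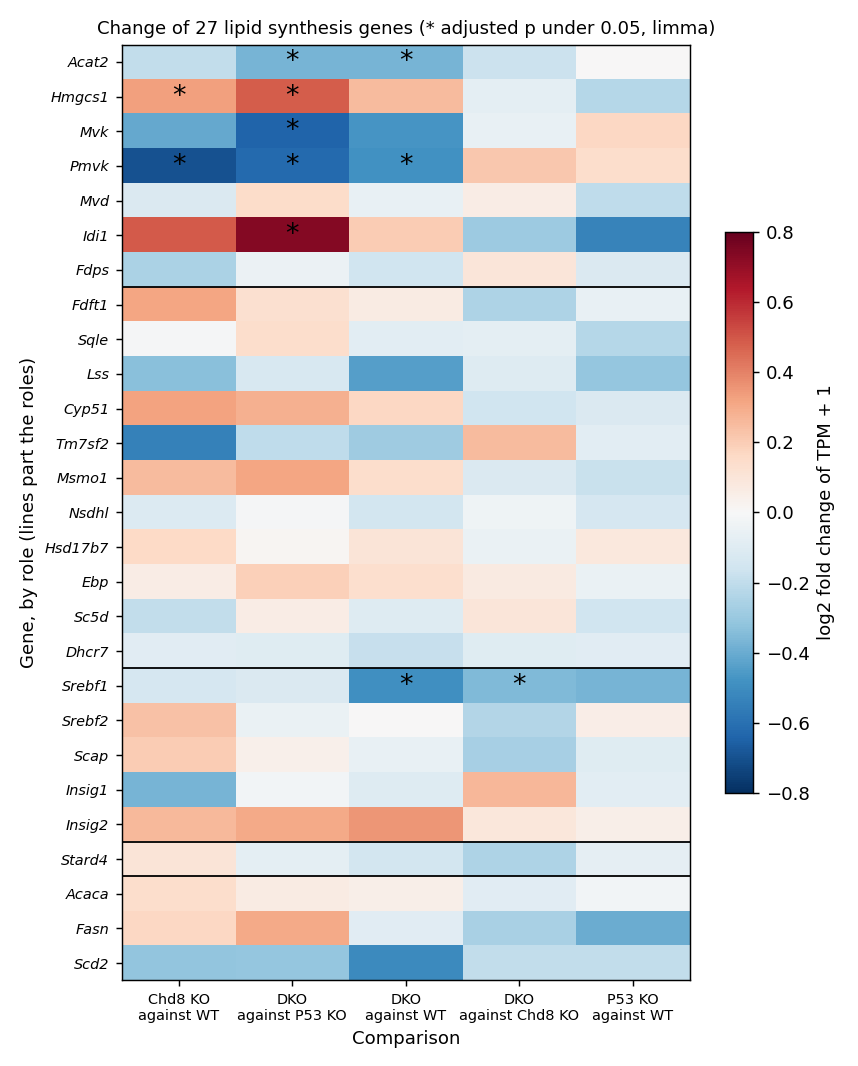
Log2 fold change of TPM + 1 (colour) of the 27 tested genes (rows, grouped by role) in the 5 pairwise comparisons (columns), with an asterisk where the adjusted p was under 0.05. Pmvk and Mvk are lower and Idi1 and Hmgcs1 higher in Chd8 KO against WT, DKO against P53 KO and DKO against WT, though not all of these changes passed the test.

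The double knockout against WT gave 3 falls and no rise among the 27 members, beside 3.46% of all genes higher and 1.77% lower. By limma, 0 rose, and 2 (7.41%) were higher at an unadjusted p under 0.05, beside 15.8% of all genes tested. At the same threshold 5 (18.5%) were lower, beside 6.12%, and the 3 called falls made up 11.1%, beside 1.77%. The genes that fell were Srebf1, Acat2 and Pmvk. The median change of the members was -0.09, beside 0.09 over all genes tested. Of 4 T and NK cell markers tested, 2 fell in DKO. The 6 markers of that list summed to 30.7 to 119 TPM in DKO and 146 to 158 TPM in WT. Of 7 stem cell, 8 erythroid and 5 tested macrophage and dendritic markers, 1 of each list rose. The part of these markers in the changes was not tested. This comparison and that of Chd8 KO share the WT libraries.

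Srebf1 encodes the SREBP-1 proteins that drive fatty acid synthesis (chromosome 11, 60199084 to 60224186). It had 67.1, 64.9 and 61.5 TPM in DKO, against 97.6, 93.6 and 82.0 TPM in WT, and fell by 0.49 ± 0.10 (adjusted p = 0.0179). In Chd8 KO it had 81.7, 73.4 and 94.0 TPM and in P53 KO 67.0, 75.2 and 68.2 TPM, so that both genotypes without P53 stood below all WT libraries. Srebf1 lies on chromosome 11, as do Trp53 and the members Acaca and Fasn. Relative to WT, Acaca changed by 0.05 in DKO and -0.02 in P53 KO, and Fasn by -0.09 and -0.40. None of these changes was called, and the part of the chromosome was not tested. Its most abundant transcript, ENSMUST00000020846.7, made up 43.5% of the gene and averaged 29.6 TPM in DKO and 35.0 TPM in WT, and on it alone the change was -0.23 with an adjusted p of 0.165.

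Acat2 had 18.7, 21.5 and 21.9 TPM in DKO and 28.6, 27.5 and 25.2 TPM in WT, a fall of 0.37 ± 0.08 (adjusted p = 0.0299). Pmvk had 15.5, 17.1 and 19.2 TPM in DKO and 26.0, 25.9 and 21.7 TPM in WT, a fall of 0.48 ± 0.12 (adjusted p = 0.0413). No DKO library reached the lowest WT library for either gene. With Srebf1, that made 3 members (11.1%) lower without overlap, beside 9.12% of all genes tested. Higher without overlap were 2 members (7.41%), beside 22.1%. The Acat2 call was lost without any 1 DKO library or without WT library 1 or 2, and the Pmvk call in 13 of the 23 alternatives.

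Several tested members fell short of the threshold in this comparison. Scd2 had 77.3, 122 and 95.7 TPM in DKO, against 153, 141 and 121 TPM in WT, a change of -0.51 ± 0.16 (adjusted p = 0.0915) in which the groups overlapped. Insig2 had 16.6, 21.3 and 20.7 TPM in DKO, against 14.5, 14.5 and 15.99 TPM in WT, a change of 0.35 ± 0.12 (adjusted p = 0.11). Scd1 had 1.39, 0.835 and 0.829 TPM in DKO, 0.421, 0.374 and 0.290 TPM in Chd8 KO, 0.432, 0.441 and 0.699 TPM in P53 KO and 0.939, 1.02 and 0.683 TPM in WT. All of these Scd1 values lie near or below 1 TPM, and Scd1 was not tested in the main fit.

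Loss of P53 on top of Chd8 loss, DKO against Chd8 KO, gave 1 fall and no rise, beside 6.32% of all genes higher and 4.21% lower. By limma, 0 members were higher at an unadjusted p under 0.05 as well, beside 16.7% of all genes tested. Lower at that threshold were 3 (11.1%), beside 10.4%, and lower without overlap 7 (25.9%), beside 16.2%. The median change was -0.09, beside 0.06 over all genes tested. All 8 erythroid markers rose in DKO and all 6 P53 targets fell. Of the B cell, megakaryocyte and mast and eosinophil markers, 3 of each list rose, and 2 of 9 proliferation markers fell. Of the T and NK cell and the macrophage and dendritic markers, 2 of each list rose. Among 7 stem cell markers 1 fell, as did 1 of 2 sort gate markers. The part of these markers in the changes below was not tested, and the Y-linked difference between these groups cannot be told apart from P53 loss. Srebf1 was the member that fell, at 67.1, 64.9 and 61.5 TPM in DKO and 81.7, 73.4 and 94.0 TPM in Chd8 KO, by 0.35 ± 0.10 (adjusted p = 0.0453). The groups did not overlap, and the call was kept in 12 of 23 alternatives. Scap, the SREBP escort, had 60.9, 60.3 and 57.9 TPM in DKO and 76.7, 63.5 and 76.0 TPM in Chd8 KO, a change of -0.26 ± 0.08 (adjusted p = 0.0576). It passed the test under median-of-ratios scaling and under quantile normalization.

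Loss of P53 alone, P53 KO against WT, called no member by limma, where 0.0760% of all genes rose and 0.106% fell. At an unadjusted p under 0.05, 0 members were higher and 4 (14.8%) lower, beside 5.6% and 9.07% of all genes tested, and the median change was -0.10, beside -0.03 over all genes tested. Srebf1 had 67.0, 75.2 and 68.2 TPM in P53 KO and 97.6, 93.6 and 82.0 TPM in WT, a change of -0.37 ± 0.10 (adjusted p = 0.217). Fasn had 55.6, 53.7 and 58.2 TPM in P53 KO and 79.7, 83.6 and 60.2 TPM in WT, a change of -0.40 ± 0.12 (adjusted p = 0.227). Idi1 had 14.5, 16.7 and 21.5 TPM in P53 KO and 26.98, 28.5 and 21.7 TPM in WT, a change of -0.54 ± 0.17 (adjusted p = 0.237), and without P53 KO library 3 it passed the test. That leaves only the 2 P53 KO libraries of the other run, so genotype and run cannot be told apart there, and over all genes the calls went up to 418 higher and 835 lower, beside 10 and 14 with all libraries. Hmgcs1 had 20.3, 18.3 and 22.5 TPM in P53 KO and 24.9, 23.7 and 23.4 TPM in WT. For these 4 genes and for Scap every P53 KO library lay below every WT library, 5 of 27 members or 18.5%, beside 7.55% of all genes tested, and no member was apart in the other direction.

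The start regions of the mevalonate genes that moved are shown because these genes split into both directions. Sequences are from RefSeq on GRCm38.p6, 250 bases before to 50 after the start, 5′ to 3′. Lower case is plain sequence, and capitals mark the sterol regulatory element core TCACNCCAC and the CCAAT box, searched on both strands, where ATTGG is CCAAT on the opposite strand. Hmgcs1 and Idi1 were the genes that rose in DKO against P53 KO, and Mvk, Pmvk and Acat2 those that fell.
Hmgcs1 (chr13:119690101-119690400, plus strand): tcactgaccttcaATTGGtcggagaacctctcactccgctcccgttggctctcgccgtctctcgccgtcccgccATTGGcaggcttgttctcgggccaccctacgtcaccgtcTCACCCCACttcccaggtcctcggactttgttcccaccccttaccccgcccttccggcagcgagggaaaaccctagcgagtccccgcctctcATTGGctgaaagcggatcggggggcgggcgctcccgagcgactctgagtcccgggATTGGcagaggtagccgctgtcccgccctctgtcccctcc
Idi1 (chr13:8885356-8885655, plus strand): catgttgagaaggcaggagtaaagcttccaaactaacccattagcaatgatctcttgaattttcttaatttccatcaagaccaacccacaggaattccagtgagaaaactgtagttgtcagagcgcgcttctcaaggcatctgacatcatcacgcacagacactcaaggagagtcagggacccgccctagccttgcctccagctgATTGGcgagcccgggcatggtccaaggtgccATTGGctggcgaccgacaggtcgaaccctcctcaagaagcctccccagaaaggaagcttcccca
Mvk (chr5:114444019-114444318, plus strand): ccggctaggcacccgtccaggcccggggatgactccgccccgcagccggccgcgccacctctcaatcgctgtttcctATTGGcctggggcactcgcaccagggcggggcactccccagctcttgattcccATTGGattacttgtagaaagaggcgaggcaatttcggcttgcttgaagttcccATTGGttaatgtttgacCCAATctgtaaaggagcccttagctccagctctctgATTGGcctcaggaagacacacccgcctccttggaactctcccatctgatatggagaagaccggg
Pmvk, upstream start (chr3:89454291-89454590, plus strand): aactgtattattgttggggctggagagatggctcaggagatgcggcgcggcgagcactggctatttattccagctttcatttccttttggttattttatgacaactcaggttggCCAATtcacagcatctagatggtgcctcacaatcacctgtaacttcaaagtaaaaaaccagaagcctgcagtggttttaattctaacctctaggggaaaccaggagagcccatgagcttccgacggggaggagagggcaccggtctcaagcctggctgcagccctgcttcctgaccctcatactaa
Pmvk, downstream start (chr3:89459321-89459620, plus strand): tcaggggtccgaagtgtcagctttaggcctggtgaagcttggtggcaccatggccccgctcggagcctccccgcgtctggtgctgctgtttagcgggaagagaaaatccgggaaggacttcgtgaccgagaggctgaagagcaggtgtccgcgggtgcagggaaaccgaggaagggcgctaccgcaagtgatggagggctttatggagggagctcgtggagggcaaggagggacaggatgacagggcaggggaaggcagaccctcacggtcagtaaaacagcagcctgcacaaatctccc
Acat2 (chr17:12960676-12960975, minus strand): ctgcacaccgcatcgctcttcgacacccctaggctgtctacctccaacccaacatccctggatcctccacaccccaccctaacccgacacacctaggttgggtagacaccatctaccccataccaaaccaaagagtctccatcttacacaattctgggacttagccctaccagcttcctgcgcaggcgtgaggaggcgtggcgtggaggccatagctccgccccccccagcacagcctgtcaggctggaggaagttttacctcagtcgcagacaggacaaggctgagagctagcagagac

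RefSeq windows were matched for 22 of the 28 genes, giving 30 windows. The sterol core TCACNCCAC, a sequence read by SREBP, was searched in this form only, so sites with other letters were not counted. It was found in 1 of the 30 windows, that of Hmgcs1, beside 1.24% of all 32851 windows. There TCACCCCAC begins 137 bases before the start. The CCAAT box, read by NF-Y, a known partner of SREBP, was found in windows of 19 of the 22 genes, beside 41.1% of all genes with windows. Mvk had 5 CCAAT boxes, Hmgcs1 4 and Idi1 2, while the upstream Pmvk start had 1 and Acat2 and the downstream Pmvk start none. Of the genes with several boxes, Hmgcs1 and Idi1 were among those that rose and Mvk among those that fell. The E-box CACGTG was in windows of 5 of the 22 genes, beside 8.09% of all genes. A match describes letters in these windows only.

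Other genes of the pathway were described from 4 lists covering acetyl-CoA supply and fatty acid elongation, the isoprenoid branch, sterol uptake, efflux and storage, and SREBP processing. Of 17 genes of supply and elongation, 3 rose and 2 fell in Chd8 KO against WT. Of 15 tested genes of uptake, efflux and storage, 1 rose and 2 fell. Over the 52 tested genes of the 4 lists, 7.69% rose and 7.69% fell, close to the 9.65% and 6.98% of all genes tested. None of 10 isoprenoid genes and none of 10 SREBP processing genes passed limma's test, and at an unadjusted p under 0.05 they gave 5 and 1 higher and none lower. At that threshold 25% of the 52 genes were higher and 13.5% lower, beside 18.2% and 13.2% of all genes tested.

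Hsd17b12, which reduces the keto intermediate in each round of fatty acid elongation, had 111, 105 and 111 TPM in Chd8 KO, against 80.9, 83.8 and 69.9 TPM in WT, and rose by 0.48 ± 0.08 (adjusted p = 0.00357). Hacd2, the dehydratase of the same cycle, had 18.3, 14.1 and 12.2 TPM in Chd8 KO, against 8.30, 8.70 and 6.20 TPM in WT, and rose by 0.86 ± 0.16 (adjusted p = 0.00621). Tecr, the enoyl reductase that closes the cycle, had 256, 246 and 247 TPM in Chd8 KO, against 316, 291 and 286 TPM in WT, and fell by 0.25 ± 0.06 (adjusted p = 0.0216). Enzymes of 1 cycle thus moved in both directions. The Tecr call was lost without any 1 Chd8 KO library or without WT library 1.

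Me1, the malic enzyme that supplies NADPH, had 2.98, 1.93 and 4.05 TPM in Chd8 KO, against 0.561, 0.535 and 0.267 TPM in WT, and rose by 1.43 ± 0.24 (adjusted p = 0.00357). Fads2, the delta-6 desaturase of polyunsaturated fatty acids, had 38.5, 41.3 and 46.4 TPM in Chd8 KO, against 84.1, 80.7 and 58.3 TPM in WT, and fell by 0.79 ± 0.14 (adjusted p = 0.00373). Groups were apart for both. Of the 52 tested genes of the 4 lists, 30.8% were higher and 15.4% lower without overlap, beside 22.7% and 14.4% of all genes tested.

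Lipoprotein receptor genes moved in opposite directions. Vldlr, the very low density lipoprotein receptor, had 1.18, 3.16 and 2.47 TPM in Chd8 KO, against 17.1, 7.93 and 7.37 TPM in WT, and fell by 1.81 ± 0.35 (adjusted p = 0.00601). Lrp8, its close relative, had 41.5, 33.6 and 38.4 TPM in Chd8 KO, against 23.4, 25.3 and 24.8 TPM in WT, and rose by 0.60 ± 0.15 (adjusted p = 0.024). Mylip, a ubiquitin ligase that degrades lipoprotein receptors, had 7.83, 8.97 and 8.81 TPM in Chd8 KO, against 18.1, 12.6 and 16.4 TPM in WT, and fell by 0.80 ± 0.17 (adjusted p = 0.0121). The Lrp8 call was lost without Chd8 KO library 1 or 3 or WT library 1 or 3, and the Mylip call without Chd8 KO library 1 or WT library 1.

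**Figure D4:**
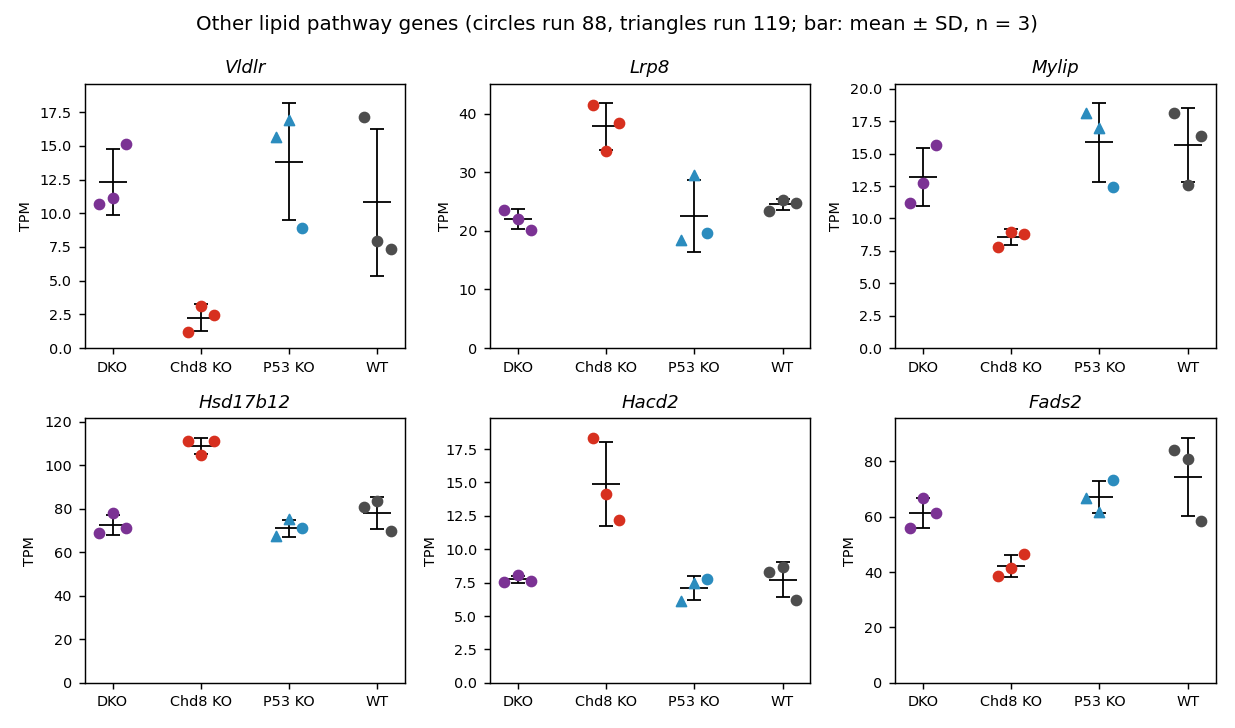
TPM (y) by genotype (x) of Vldlr, Lrp8, Mylip, Hsd17b12, Hacd2 and Fads2, all called in Chd8 KO against WT, with 1 point per library (circles for run 88, triangles for run 119) and bars for mean ± SD (n = 3). All 3 Chd8 KO libraries lie outside the range of the other 9 libraries for each of the 6 genes.

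In DKO against Chd8 KO, 8 of the 52 tested pathway genes passed the test, 4 of them higher and 4 lower, or 7.69% each, beside 6.32% of all genes higher and 4.21% lower. This comparison shares the Chd8 KO libraries with that of Chd8 KO against WT. Vldlr had 10.7, 11.1 and 15.2 TPM in DKO, against the Chd8 KO values above, and rose by 2.06 ± 0.35 (adjusted p = 0.00525). Hsd17b12 had 69.0, 77.9 and 71.4 TPM in DKO and fell by 0.58 ± 0.08 (adjusted p = 0.00216). Hacd2 had 7.56, 8.07 and 7.65 TPM in DKO and fell by 0.84 ± 0.16 (adjusted p = 0.0112). Among the others, the changes were -0.99 for Me1, -0.75 for Lrp8, 0.53 for Fads2 and 0.44 for Lipa, the lysosomal acid lipase. The interaction was past the threshold for none of the listed genes, with adjusted p of 0.0806 for Hsd17b12, 0.0828 for Me1, 0.115 for Vldlr, 0.116 for Fads2, 0.138 for Hacd2 and 0.178 for Lrp8.

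In DKO against P53 KO, 6 of the 52 tested genes of the lists rose and none fell. The 11.5% that rose were close to the 11.2% of all genes. Elovl1, an elongase of very long saturated fatty acids, had 129, 136 and 124 TPM in DKO, against 86.7, 90.9 and 102 TPM in P53 KO, a rise of 0.48 ± 0.08 (adjusted p = 0.0062). Nus1, a subunit of the enzyme that makes dolichol, had 25.6, 26.3 and 25.1 TPM in DKO, against 17.3, 16.9 and 21.2 TPM in P53 KO, a rise of 0.47 ± 0.09 (adjusted p = 0.0116). The others were Fntb, the farnesyltransferase beta subunit, Osbp, an oxysterol-binding protein, and the vesicle coat GTPases Sar1a and Sar1b, at changes of 0.27 to 0.53. All 6 calls were lost when the run was accounted for, with all changes still positive, at 0.35 for Elovl1, 0.27 for Nus1, 0.29 for Fntb, 0.19 for Osbp and 0.15 for Sar1a and for Sar1b. Sar1a was called in only 3 of the 23 alternatives. In DKO against WT only Elovl1 passed, at 0.32 ± 0.08 (adjusted p = 0.0463), and it was kept in 9 of 23 alternatives. In P53 KO against WT none of the listed genes passed limma's test, and at an unadjusted p under 0.05 the 52 tested genes gave 1 higher and 7 lower, or 1.92% and 13.5%, beside 5.6% and 9.07% of all genes.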

How the data were processed

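RNA of 12 libraries was analysed, and the 4 ATAC-seq and 6 CUT&RUN samples were not analysed here. Transcript abundances had been deposited by the authors as TPM, in 1 table per library with 105129 transcripts. Each library sums to 1000000 TPM, so depth and counting error are unknown. The submitters' processing notes name the aligners Bowtie2 2.3.4.1 and STAR 2.6.1e, the trimmers cutadapt 1.9.1 and Trim Galore 0.4.2, and featureCounts 1.6.2, with no assay given. They also list the GRCm38 build. The program behind the TPM was not given in the sources used here.

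Transcripts were summed per gene with Python 3.11.15 and pandas 2.3.3. Genes averaging at least 1 TPM were tested on log2(TPM + 1), a scale that understates changes of low genes, with limma 3.58.1 in R 4.3.3. The fit had 1 mean per genotype, a shared spread with a mean-variance trend, 8 residual degrees of freedom, two-sided tests and Benjamini-Hochberg adjustment over the 13162 genes. The 23 alternatives changed 1 choice each. Named genes were all 28 members, the called genes of the 4 pathway lists (up to 4 by smallest p) and the targeted genes. Tecr ranked below these in its list and was named after its values were seen. A single called gene of the pathway lists is not reported here. Members and lists were chosen with earlier results of these data known.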

Additional observations from a re-analysis of the deposited data

How the results depend on the processing

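The 11 called gene and comparison pairs were recomputed under 23 alternatives, 253 values in all. The call was kept in 176, the direction but not the call in 77, and no direction turned. No pair was kept under all 23, and Pmvk in Chd8 KO against WT was kept under 22. Higher members in Chd8 KO against WT (1) numbered 0 under median-of-ratios scaling, quantile normalization and the replicate block, and 2 (Hmgcs1 and Idi1) with the run as covariate or with only the run of 10 libraries. Lower members in DKO against WT (3) numbered 1 with only the groups compared and with the block, and 0 with the most abundant transcript. In DKO against Chd8 KO, higher members (0) numbered 1 (Scd1) without a filter, and lower ones (1) numbered 0 without a filter, with the block and with the most abundant transcript, and 2 under both scalings. In DKO against P53 KO, higher members (2) numbered 0 under both scalings, with only the groups compared and in both fits for the run, and lower ones (3) numbered 0 with only the groups compared and in both fits for the run. The replicate block changed no other count of members.

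With 1 library left out, higher and lower members ranged from 0 to 2 and 1 to 2 in Chd8 KO against WT, 0 and 0 to 1 in P53 KO against WT, 0 and 0 to 4 in DKO against WT, 0 and 0 to 2 in DKO against Chd8 KO, and 1 to 3 and 1 to 3 in DKO against P53 KO, with 0 in the interaction. Without WT library 3, the median change of the members in Chd8 KO against WT was -0.17 rather than -0.01, and Lss was called lower. Over all genes, DKO against P53 KO gave 1471 higher and 486 lower, but 558 and 756 under median-of-ratios scaling, 662 and 723 under quantile normalization and 180 and 118 with only the run of 10 libraries. Median-of-ratios scaling turned 1270 and 919 into 1038 and 1144 in Chd8 KO against WT, 455 and 233 into 252 and 380 in DKO against WT, and 832 and 554 into 742 and 831 in DKO against Chd8 KO. The labels do not say that replicate numbers pair the libraries. Residuals of same-numbered libraries correlated at -0.255 to 0.118, and those of other-numbered libraries at -0.217 to 0.242. Residuals about means of 3 libraries cannot settle whether the libraries were paired.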
